A study of Mus musculus with 20 samples.

Results

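The collagen genes were followed in dermal lymphatic endothelial cells (LECs) taken from mouse ear skin at 4 times of day. They were chosen by name alone: every row of the count tables whose symbol read Col, digits, the letter a, and digits, with nothing after it. The rule found 44 of 24062 symbols, and it passed over 6 symbols that begin with Col but name no collagen chain, among them Colq and Colec10. Each of the 44 matched a single gene model, and each had enough counts to be tested.

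The study asked whether leukocytes leave tissues in a daily rhythm, and followed dendritic cells into the lymphatic vessels of the skin. Wild-type mice labelled C57BL/6 (C57BL/6N in the study's methods) and aged 56 days were sampled at zeitgeber time (ZT) 1, 7, 13 and 19, in hours after lights on. 5 libraries were made at each time point, 20 in all, and no group carried a further allele or received an agent. The ears of a pair of male mice were pooled for a library according to the study's methods, and the skin was digested with collagenase IV before CD31+ podoplanin+ cells were sorted.

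Collagens are matrix proteins whose chains wind into a triple helix, and their classes differ in what the helices build. Fibril-forming collagens make the dermal fibres, type IV chains make the sheet of the basement membrane, type VI makes beaded filaments beside it, and transmembrane collagens stay anchored in the plasma membrane. Initial lymphatic vessels of the skin are known for a thin, discontinuous basement membrane, whereas fibroblasts are the main source of fibrillar collagen in the dermis and basal keratinocytes carry type XVII collagen in hemidesmosomes.

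The libraries held 4475111 to 42002363 counts on genes, and these made up 12.7 to 81.6% of all reads placed on a gene or on no gene. Collagen genes took 0.124 to 0.494% of the counts on genes. The 8 LEC markers, Prox1, Lyve1 and Flt4 among them, summed to 45686 to 113703 normalized counts per library, and the 10 keratinocyte markers to 9984 to 180873. The lists differ in number and length of genes, so each sum shows the spread over libraries and not which RNA was more abundant. edgeR called no LEC marker in any comparison, and DESeq2 called 1 of them, Cdh5, from ZT1 to ZT19 and from ZT13 to ZT19. The study used a Cdh5-driven Cre to target blood endothelial cells as well as LECs, so Cdh5 is not particular to LECs. Normalized counts are counts divided by an effective library size, so they compare libraries for 1 gene and not genes with each other.

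The start regions of 4 genes are shown because their data bear on them. Col17a1 and Col6a1 were called by the test among the 4 time points, and Col4a1 and Col4a2 share a start region and varied together. Each sequence runs from 250 bases before to 50 bases after the transcription start of the RefSeq annotation on GRCm38.p6, 5′ to 3′ on the gene's own strand. In the first pair, capitals mark the letters TGANTCA, the AP-1 motif, and CACGTG, the E-box read by circadian activators. In the second pair, capitals mark the 78 bases that both windows hold, read on opposite strands.
Col17a1 (chr19:47691993-47692292, minus strand): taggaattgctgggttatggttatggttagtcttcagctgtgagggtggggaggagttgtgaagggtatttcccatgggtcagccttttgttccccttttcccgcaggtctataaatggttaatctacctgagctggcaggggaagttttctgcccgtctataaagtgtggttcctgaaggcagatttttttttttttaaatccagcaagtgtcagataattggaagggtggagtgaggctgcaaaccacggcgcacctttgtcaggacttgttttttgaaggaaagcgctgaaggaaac
Col6a1 (chr10:76725995-76726294, minus strand): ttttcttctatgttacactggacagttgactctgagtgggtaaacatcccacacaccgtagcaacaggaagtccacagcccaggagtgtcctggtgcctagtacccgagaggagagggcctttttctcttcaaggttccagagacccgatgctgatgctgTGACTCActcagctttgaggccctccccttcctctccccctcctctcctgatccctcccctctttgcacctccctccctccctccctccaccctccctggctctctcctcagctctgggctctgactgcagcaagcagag
Col4a1 (chr8:11312777-11313076, minus strand): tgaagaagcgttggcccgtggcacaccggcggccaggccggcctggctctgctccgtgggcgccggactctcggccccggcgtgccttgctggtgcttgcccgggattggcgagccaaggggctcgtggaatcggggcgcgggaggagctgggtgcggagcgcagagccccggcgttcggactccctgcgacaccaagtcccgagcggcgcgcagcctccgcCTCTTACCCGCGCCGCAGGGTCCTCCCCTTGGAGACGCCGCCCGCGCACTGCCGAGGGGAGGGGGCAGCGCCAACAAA
Col4a2 (chr8:11312555-11312854, plus strand): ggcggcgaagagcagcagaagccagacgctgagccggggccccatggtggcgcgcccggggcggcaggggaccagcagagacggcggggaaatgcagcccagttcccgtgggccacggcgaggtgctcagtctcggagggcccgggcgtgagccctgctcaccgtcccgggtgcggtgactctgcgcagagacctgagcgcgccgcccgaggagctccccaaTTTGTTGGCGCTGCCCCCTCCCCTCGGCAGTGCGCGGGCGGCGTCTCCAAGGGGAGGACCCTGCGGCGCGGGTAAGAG

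Of the 44 collagen genes, 35 had a RefSeq window, 38 windows in all. CACGTG, which reads the same on both strands, was in none of the 38, against 2349 of 32851 windows of the same length genome-wide (7.15%). TGANTCA, also its own reverse complement, was in 1 of them, that of Col6a1, 90 bases before its start, against 7.81% of all windows. The AP-1 letters were searched after the sequence of Col6a1 had been seen, and a match or its lack describes these windows only.

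Levels were compared between genes only per length, as counts per kilobase of annotated exon per 1000000 counts on genes. On that scale 7 of the 44 genes had a mean over 10 and 34 a mean over 1, and the first and last in the order lay 174-fold apart. The 4 highest, Col18a1, Col17a1, Col23a1 and Col4a1, held 50.7% of the summed mean level, and the 15 highest held 85.7%.

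**Figure D1:**
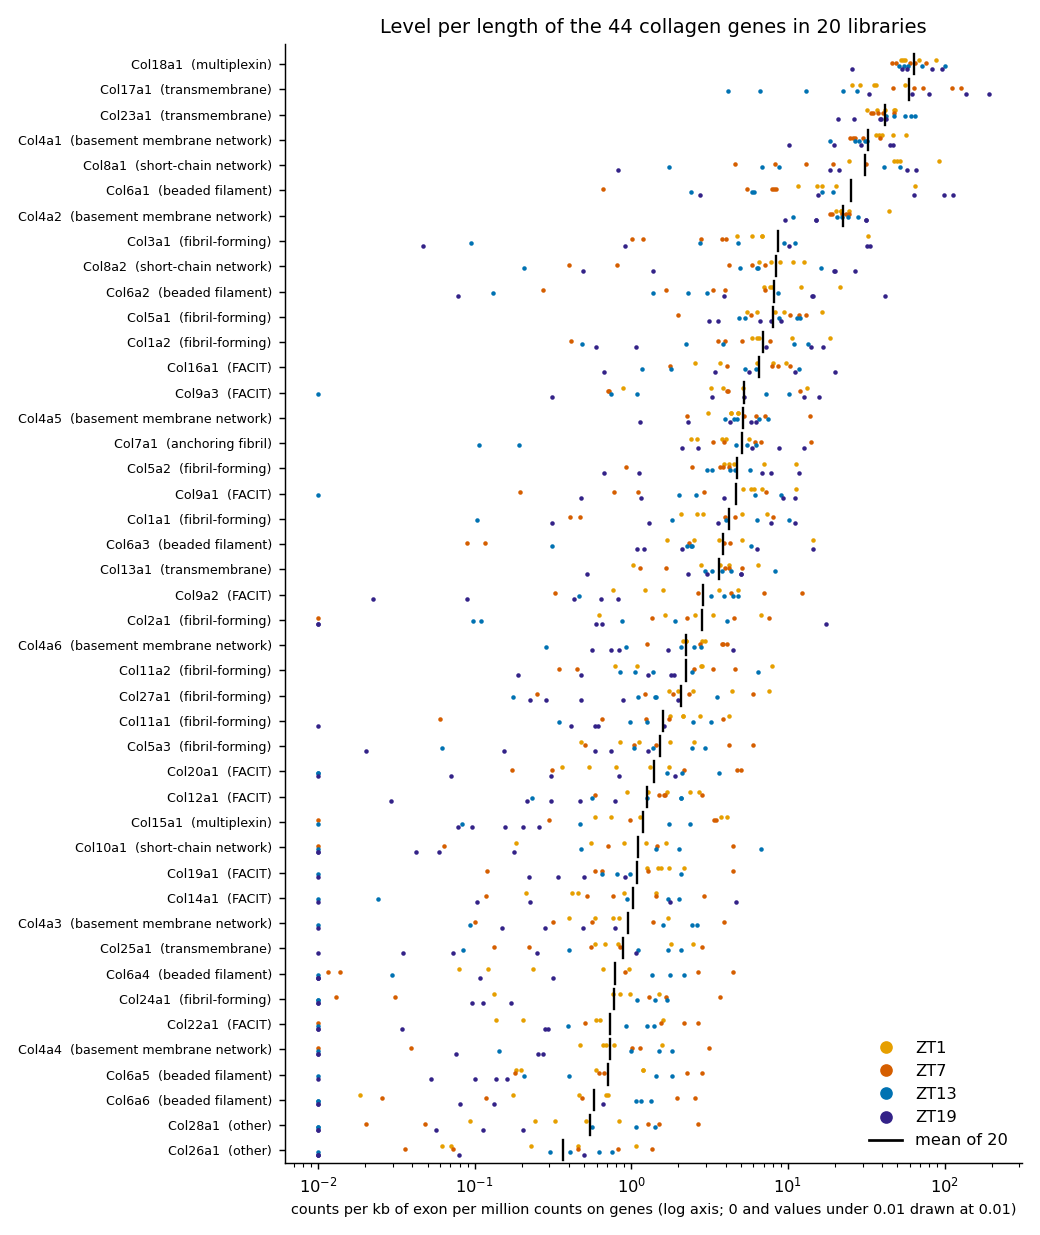
Level per length of each collagen gene (horizontal log axis, counts per kilobase of exon per 1000000 counts on genes) with 1 point per library coloured by time point and a black bar at the mean of 20. Col18a1 had the highest mean, 63.5, and Col26a1 the lowest, 0.364, and points at the left edge are libraries with a value at or near 0.

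Col18a1, a multiplexin of basement membranes and the precursor of endostatin, had the highest mean level per length, 63.5 ± 18.3 (SD, n = 20), and ranged from 25.4 to 101. Col18a1 had normalized counts in replicates 1 to 5 of 4203, 8997, 4322, 4076 and 6800.5 at ZT1, 3998, 5185, 4312, 3509.8 and 2723 at ZT7, 4221, 6369.6, 3656, 3845 and 6405 at ZT13 and finally 3434, 6439.8, 5655, 5657 and 2187 at ZT19. The 4 time points overlapped, and the test among them gave an adjusted p of 0.798. Its normalized counts had a coefficient of variation of 33.9% over the 20 libraries.

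Col23a1, a transmembrane collagen, was the third in the order, after Col17a1, with 41.9 ± 10.7 (SD, n = 20) and had the smallest coefficient of variation of the 44, 32.3%. Col23a1 had normalized counts in replicates 1 to 5 of 2281, 4055, 2679.6, 2027 and 3860.0 at ZT1, 2659, 2625, 2200.3, 1626 and 1582 at ZT7, 2494, 4684, 3265, 2927 and 2889 at ZT13 and finally 2059, 2088, 2357, 1673 and 1847 at ZT19. Every ZT13 library lay above every ZT19 library, while ZT1 and ZT7 overlapped both. By edgeR the adjusted p was 0.363 among the 4 time points and 0.204 from ZT13 to ZT19 (log2 difference -0.70, SE 0.30, unadjusted p = 0.0287), and DESeq2 called that pair (adjusted p = 0.0111).

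Col4a1 and Col4a2 encode the chains of the common type IV network of vessel basement membranes, and had mean levels per length of 32.6 and 22.4. Col4a1 had normalized counts in replicates 1 to 5 of 2897, 6133, 3201, 3288 and 4916 at ZT1, 2315, 1867, 2744, 1877 and 1569 at ZT7, 2409.5, 2509.9, 1989, 2581 and 1262 at ZT13 and finally 700.5, 3149.8, 3397, 3052 and 1801 at ZT19. Its ZT1 values lay above every ZT7 and ZT13 value, but overlapped those of ZT19. The log2 difference of ZT7 from ZT1 was -0.98 (SE 0.37) with an adjusted p of 0.836, and among the 4 time points the unadjusted p was 0.0341 and the adjusted p 0.280. Col4a2 had normalized counts in replicates 1 to 5 of 1729, 4249, 1516, 1578 and 2031 at ZT1, 1826, 1233, 1534, 1285 and 969.8 at ZT7, 1658, 2317, 1285, 1572 and 649.7 at ZT13 and finally 921, 1971, 2044, 878 and 1222 at ZT19. For Col4a2 ZT1 replicate 2 lay far above the rest of its time point, and the groups overlapped (adjusted p = 0.538 among the 4).

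The other type IV chains lay lower. Col4a5 had a mean level per length of 5.17 and Col4a6 of 2.25, both on chromosome X, and Col4a3 and Col4a4, known from kidney and lung membranes, had means of 0.952 and 0.728 and were at 0 in 2 and 4 libraries. None of the 6 was called.

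Col8a1 and Col8a2, the chains of the short-chain network laid down by endothelial cells, had mean levels per length of 30.9 and 8.39. Col8a1 had normalized counts in replicates 1 to 5 of 7759, 5393, 4586, 2128 and 5488 at ZT1, 1263, 348, 2344, 539 and 1208 at ZT7, 3352, 172, 645, 579 and 3710.5 at ZT13 and finally 1344, 4836, 4394, 90.3 and 2033 at ZT19. ZT19 replicate 4 and ZT13 replicate 2 were the lowest of the 20 libraries, and 4 of the 5 values at ZT1 exceeded every value at ZT7 and ZT13. The unadjusted p among the 4 time points was 0.0311 and the adjusted p 0.273. Col10a1, the hypertrophic cartilage member of the class, had a mean of 1.11 and was at 0 in 4 libraries.

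Fibril-forming collagens were 11 of the 44, and Col3a1, the chain of type III fibres, had the highest mean level per length among them, 8.70, ranging from 0.0471 to 33.2. Col3a1 had normalized counts in replicates 1 to 5 of 3389, 679, 758, 738 and 817 at ZT1, 123, 113, 353, 227 and 314 at ZT7, 1132, 11.7, 252, 503 and 839.5 at ZT13 and finally 912, 2977, 3185, 6.45 and 109 at ZT19. ZT19 replicate 4 held 6.45 and ZT13 replicate 2 held 11.7, and ZT1 replicate 1 stood far above its group. No ZT7 library reached any value of ZT1, yet the adjusted p among time points was 0.277. Col5a1, Col1a2, Col5a2 and Col1a1, which build or regulate the same fibres, had mean levels of 8.08, 6.96, 4.75 and 4.20. The cartilage chain Col2a1 had a mean of 2.83 and varied most of the class, with a coefficient of variation of 135%, and its normalized counts reached 1489.7 in ZT19 replicate 1 against 0 to 668 in the other libraries.

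Col6a1 was the highest of the beaded-filament class at 25.1 per length, followed by Col6a2 at 8.12 and Col6a3 at 3.82, the chains of the usual type VI trimer. The alternative chains Col6a4, Col6a5 and Col6a6 had means of 0.581 to 0.792. Among the FACIT collagens, which sit on the surface of fibrils, Col16a1 (6.50), Col9a3 (5.23) and Col9a1 (4.65) came first. Col7a1, the anchoring fibril of the skin's epidermal junction, had a mean of 5.07 and Col28a1, of the 2 genes outside the classes, 0.547.

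Of the 16 genes with a mean level under 1.5, 15 were at 0 in at least 1 library, against 4 of the other 28. A low mean makes zeros likelier, so this contrast partly restates the split. The lowest mean normalized count fell at ZT19 for 15 of the 16 and for 8 of the 28, against 46.0% of all genes tested. Other genes of like level were not counted. From ZT1 to ZT19 the median log2 difference over all genes was -0.39, and 0.03 when only genes with at least 10 counts in at least 10 libraries were kept. The 12 libraries in which at most 35.01% of reads fell on genes had counts for all 44 collagen genes. Of the 8 libraries at 37.7% or more, all but ZT19 replicate 3 (53.7%) lacked at least 1 collagen gene, and ZT19 replicate 1 (81.6%) lacked 13 and ZT13 replicate 5 (79.9%) lacked 12. The share of reads on genes was 24.6 ± 3.36% (SD, n = 5) at ZT1, 29.1 ± 21.03% at ZT7, 36.6 ± 25.6% at ZT13, against 59.8 ± 17.1% at ZT19. Its part in the values of the low genes was not tested.

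**Figure D2:**
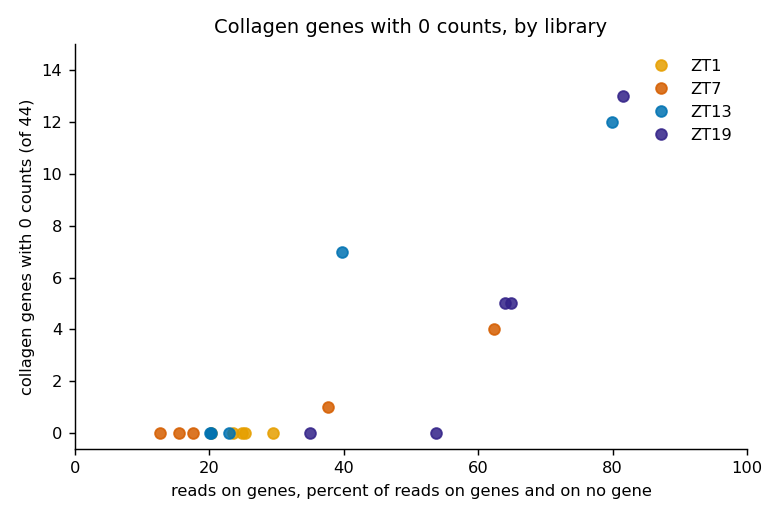
Number of the 44 collagen genes with 0 counts (vertical axis) against the share of reads on genes in percent of reads on genes and on no gene (horizontal axis), 1 point per library coloured by time point. The 12 libraries up to 35.01% lacked none, and 13 were lacking in the library at 81.6%.

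By class, the reads on collagen genes were split unevenly, and the mean split differed between time points within wide spreads. Transmembrane collagens took 17.1 ± 4.67% (SD, n = 5) of them at ZT1, 31.2 ± 5.22% at ZT7, 20.8 ± 5.73% at ZT13, against 28.3 ± 9.17% at ZT19. Short-chain network collagens took 14.9 ± 3.26%, 5.49 ± 2.53%, 8.53 ± 7.37% and 9.68 ± 6.13% in the order of the time points. Beaded-filament collagens took 8.89 ± 4.11%, 4.20 ± 2.44%, 5.16 ± 2.76% and 12.0 ± 7.17% in that order. These shares were not tested.

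Among the 4 time points, 2 of the 44 collagen genes were called at an adjusted p under 0.05 by edgeR's quasi-likelihood test, Col17a1 and Col6a1, against 0.422% of the 19209 genes tested. At an unadjusted p under 0.05 there were 11 of 44, against 15.7% of all genes, and DESeq2 called 3 of 44, adding Col9a2, against 3.22%. By class edgeR called 1 transmembrane and 1 beaded-filament gene and none of the other classes, and DESeq2 called 1 FACIT gene besides. For the 24 collagen genes whose values are not singled out here the lowest adjusted p of edgeR was 0.103 in any comparison, whereas DESeq2 called 5 of them in 1 or more pairs with ZT19, namely Col10a1, Col6a5, Col15a1, Col24a1 and Col6a4, where it called 9.26 to 10.8% of all genes in each such pair.

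Col17a1, on chr19:47646344-47692094 of mm10, encodes the transmembrane collagen of hemidesmosomes, the junctions that hold basal keratinocytes to the basement membrane. Its mean level per length was 59.0, and it was lowest at ZT13 and highest at ZT19. Col17a1 had normalized counts in replicates 1 to 5 of 1855, 3212, 3819.5, 2355 and 2167 at ZT1, 3469, 4220.1, 7234, 3167 and 5316 at ZT7, 1714, 314, 1267, 846 and 361 at ZT13 and finally 10595, 3499.5, 7985, 6645 and 2434 at ZT19. Every ZT13 library lay below every library of the other time points, which overlapped among themselves. The means were 2682 ± 811 (SD, n = 5) at ZT1, 4681 ± 1650.2 at ZT7, 901 ± 599 at ZT13, against 6232 ± 3323 at ZT19.

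From ZT7 to ZT13 Col17a1 fell 5.20-fold (log2 difference -2.38, SE 0.47, adjusted p = 0.0296), and from ZT13 to ZT19 it rose 6.93-fold (2.79, SE 0.47, adjusted p = 0.00368), while the median gene moved by -0.07 and -0.22 on the log2 scale. Among all 4 the adjusted p was 0.0146. It was the one collagen gene called in either pair, by edgeR, where 0.0937% of all genes were called from ZT7 to ZT13 and 0.588% from ZT13 to ZT19. Leaving out ZT7 replicate 2, 3 or 5 or ZT13 replicate 2, 4 or 5 ended the call from ZT7 to ZT13 (adjusted p 0.0510 to 0.110), and leaving out ZT13 replicate 4 ended that among the 4 (0.0620), whereas the rise to ZT19 was called in each of the 20 fits without a library (0.00239 to 0.0159).

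Keratinocyte markers moved with Col17a1. Of the 10 on the list, all were lower at ZT13 than at ZT7 and higher at ZT19 than at ZT13 by fitted difference, 5 were called by edgeR among the 4 time points (Krt5, Krt14, Krt15, Perp and Sfn), 3 from ZT7 to ZT13 and 5 from ZT13 to ZT19. Their summed normalized count was 32974 to 67387 at ZT1, 58069 to 173395 at ZT7, 9984 to 29746 at ZT13, against 89937 to 180873 at ZT19. Within ZT13, replicates 2 and 5 were lowest both in Col17a1 and in the sum, but within ZT19 replicate 5 had the lowest Col17a1 and the highest sum. Within ZT7 the sum was highest in replicate 2 and Col17a1 in replicate 3. The mean of Krt14, a keratin of basal keratinocytes, was 7249 at ZT13, against 52650.0 at ZT19. The part of keratinocyte RNA in the Col17a1 result was not tested, and in bulk samples fewer cells of a type and less RNA per cell cannot be told apart.

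Col6a1, on chr10:76708792-76726168 of mm10, encodes a chain of type VI collagen and was high at ZT19 and ZT1 and low at ZT7 and ZT13. Col6a1 had normalized counts in replicates 1 to 5 of 3011, 1057, 569.9, 735 and 1257 at ZT1, 297, 28, 336, 307 and 275 at ZT7, 883, 131, 244, 286 and 651 at ZT13 and finally 4568, 2627, 4209, 166 and 838 at ZT19. No ZT7 library reached the lowest ZT1 value, whereas ZT19 spread from 166 in replicate 4 to 4568 in replicate 1 and overlapped all other time points. The means were 1326 ± 979 (SD, n = 5), 249 ± 125, 439 ± 316 and 2482 ± 1963 from ZT1 to ZT19.

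Among the 4 time points Col6a1 had an adjusted p of 0.0456, close to the threshold. edgeR called no pair: the log2 difference from ZT7 to ZT19 was 3.32 (SE 0.71, adjusted p = 0.107), and the level was 5.65-fold higher at ZT19 than at ZT13 in the fit (adjusted p = 0.0798). DESeq2 called both of these pairs (adjusted p = 0.00312 and 0.0319). The call among the 4 was lost without any one of ZT1 replicates 2 and 5, ZT7 replicates 1, 3, 4 and 5, ZT13 replicates 2 and 4, and ZT19 replicates 1, 2 and 3 (adjusted p 0.0502 to 0.0973). Without ZT19 replicate 4 it strengthened to 0.00645, and Col6a1 was then also called for a 24-h rhythm and from ZT7 and from ZT13 to ZT19.

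Col6a2, its usual partner, had the same order of high and low time points without a call (adjusted p = 0.224 among the 4). Col6a2 had normalized counts in replicates 1 to 5 of 1906, 931, 744, 642 and 1432 at ZT1, 28.3, 134, 565, 230.2 and 259.8 at ZT7, 744, 13.8, 238, 124 and 174 at ZT13 and finally 1110.3, 1129.9, 3381, 9.03 and 397 at ZT19. ZT19 replicate 4 was the lowest of the 20 libraries for Col6a2, whereas for Col6a1 it was the lowest of its time point only. Fibroblast markers other than collagens summed to 5782 to 14399.5 normalized counts at ZT1, 1765 to 5348 at ZT7, 3377 to 7520.1 at ZT13, against 2013 to 8224 at ZT19, and the lowest and highest of ZT19 were replicates 4 and 5. ZT19 replicate 1, with the highest Col6a1, had a sum of 3146. edgeR called none of the 10 among the 4 time points, with 4 at an unadjusted p under 0.05, and DESeq2 called 1, Fbn1. Of the 2 with the highest level per length, Mgp, an inhibitor of calcification, had mean normalized counts of 1475, 372, 646 and 443 from ZT1 to ZT19, and Dcn, a proteoglycan of collagen fibrils, 5438, 1054, 1983 and 3467. The microfibril gene Fbn1, with the smallest p of the list (adjusted 0.0506 by edgeR), had 2522, 1223, 1349.8 and 669, so that Dcn was higher at ZT19 than at ZT7 and ZT13 on average and Fbn1 lower. The part of fibroblast RNA in these values was not tested.

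**Figure D3:**
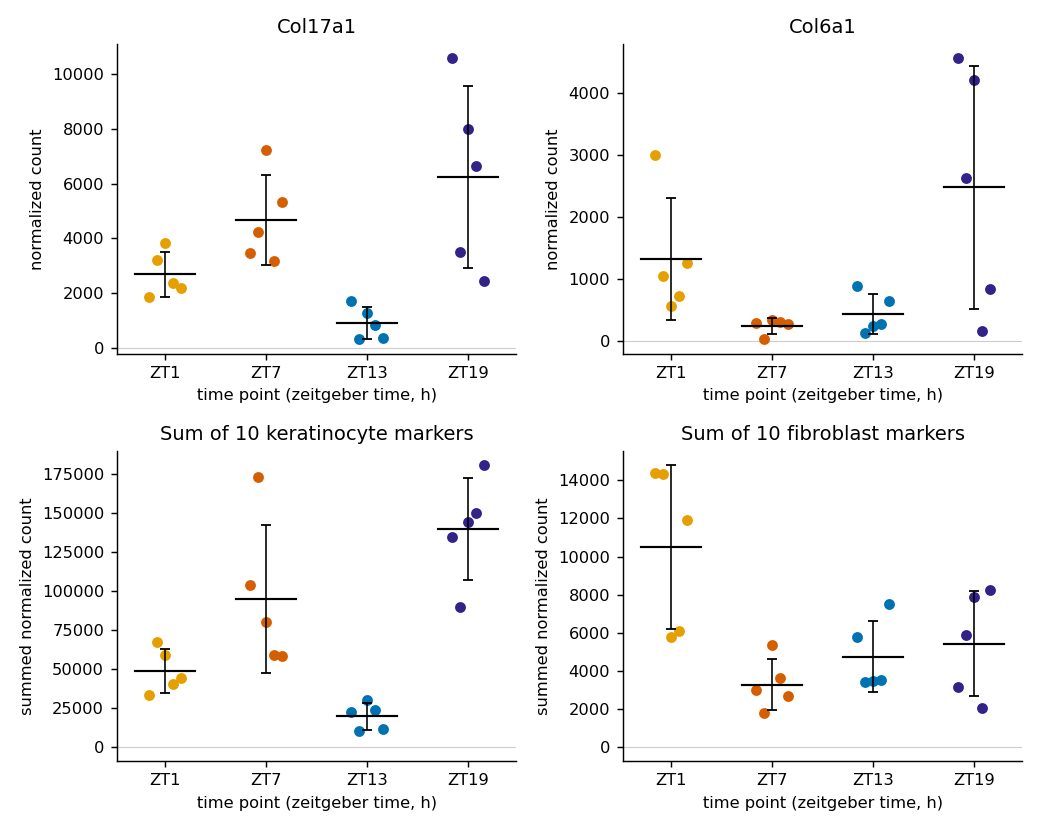
Normalized counts of Col17a1 and Col6a1 and the summed normalized counts of 10 keratinocyte and 10 fibroblast markers (vertical axes) by time point (horizontal axis), with 1 point per library, a bar at the mean and whiskers of 1 SD (n = 5). The 5 ZT13 points of Col17a1, 314 to 1714, lay below all others, and the keratinocyte sum at ZT13 was likewise lower than at every other time point.

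For a 24-h cosine curve edgeR called 0 of the 44 collagen genes, against 0.0312% of all genes. At an unadjusted p under 0.05 there were 9 of 44, against 9.23%, and DESeq2 called 1 of the 31 collagen genes it kept, Col6a1, against 0.683%. Col6a1 had the lowest p (unadjusted 3.58e-05, adjusted 0.0859), with its fitted peak at 20.7 h, and Col17a1, whose high points lay at ZT7 and ZT19, had an adjusted p of 0.637.

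From ZT1 to ZT7 edgeR called none of the 44, against 0.00521% of all genes, with 10 at an unadjusted p under 0.05 (4.97% of all genes) and none of the 27 that DESeq2 kept (0.137%). The 10 were Col1a2, Col3a1, Col4a1, Col5a2, Col6a1, Col6a2, Col6a3, Col8a1, Col8a2 and Col9a1. Of the 44 fitted differences 29 were negative, against 9121 of the 19209 genes tested. The median was -0.51 against 0.05 over all genes, and leaving out 1 library at a time gave -0.72 to -0.35. With total-count scaling the median was -0.11 against 0.43 and 20 were positive, and with upper-quartile scaling -0.28 against 0.26. The marker lists differed in direction in this pair, and edgeR called none of their genes. The 10 fibroblast markers had a median difference of -0.72 with 6 negative, the 6 chondrocyte markers -0.82 with 5 negative, and the 8 LEC markers -0.53 with all 8 negative, whereas all 10 keratinocyte markers (median 0.77), all 5 blood endothelial markers (0.21) and 3 of 4 Schwann cell markers (0.57) were positive. The unadjusted p was under 0.05 for 4 fibroblast, 2 chondrocyte and 3 keratinocyte markers and for none of the LEC, blood endothelial and Schwann cell markers. The chondrocyte markers summed to 2091 to 5947 normalized counts at ZT1, 1654 to 1990.3 at ZT7, 1382 to 2686 at ZT13, against 1965 to 3897 at ZT19. edgeR called 1 of the 6, the transcription factor Sox9, higher at ZT19 than at ZT13 (adjusted p = 0.0356). In that pair 4 of the 6 rose and 2 fell by fitted difference, and 5 keratinocyte markers were called higher. The part of other cells' RNA in the collagen differences was not tested. From ZT1 to ZT13 edgeR called none either, against 0.0208%, with 6 at an unadjusted p under 0.05 (5.37%) and none of the 28 that DESeq2 kept (0.624%). The median difference was -0.51 against -0.06, and 30 of the 44 were negative, against 10335 of the 19209 genes tested. With total-count scaling the median was -0.22 against 0.16 and with upper-quartile scaling -0.27 against 0.11. Leaving out 1 library at a time gave -0.78 to -0.32. By fitted difference all 10 keratinocyte, 7 of 10 fibroblast, 5 of 6 chondrocyte and 7 of 8 LEC markers were lower at ZT13. In contrast, 4 of 5 blood endothelial and 3 of 4 Schwann cell markers were higher. The part of these cells' RNA was not tested.

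From ZT1 to ZT19 edgeR called none, against 0.0156% of all genes, with 12 at an unadjusted p under 0.05 (21.6%), and DESeq2 called 6 (10.4%). The 6 were Col27a1, Col10a1, Col6a5, Col9a2, Col12a1 and Col15a1. The median of the 44 was -0.77 against -0.39 over all genes, and -1.17 to -0.58 when 1 library was left out. Of the 44, 33 were lower at ZT19, against 12003 of the 19209 genes tested. When the odds of a read lying on a gene entered the fit the median was 0.06 against 0.11 and 23 were higher. The share of reads on genes averaged 59.8% at ZT19 and 24.6% at ZT1, so that fit cannot fully separate it from time. All 7 pericyte and smooth muscle, all 4 leukocyte and 7 of 8 LEC markers were lower at ZT19, whereas all 10 keratinocyte and 3 of 5 blood endothelial markers were higher.

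From ZT7 to ZT13 the unadjusted p was under 0.05 for Col17a1 alone, against 2.59% of all genes, and DESeq2 also called it, among 0.589% of all genes. From ZT7 to ZT19 edgeR called none, against 0.0156%, with 13 at an unadjusted p under 0.05 (19.7%) and 8 by DESeq2 (10.8%). From ZT13 to ZT19 there were 8 at an unadjusted p under 0.05 (19.2%) and 7 by DESeq2 (9.26%), Col17a1 and Col6a1 among them. In the pairs with ZT19 19.2 to 21.6% of all genes passed the unadjusted threshold, and the collagen counts there stand beside that share. The median of the 44 was -0.45 against -0.20 over all genes from ZT7 to ZT19, and -0.63 to -0.18 when 1 library was left out. From ZT13 to ZT19 it was -0.56 against -0.22, and -0.69 to -0.36 when 1 library was left out. Both medians turned with the odds of a read on a gene in the fit, to 0.93 against 0.24 with 35 higher and to 0.46 against 0.22 with 30 higher. The share of reads on genes averaged 59.8% at ZT19 against 29.1% at ZT7 and 36.6% at ZT13, so that fit cannot fully separate it from time.

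**Figure D4:**
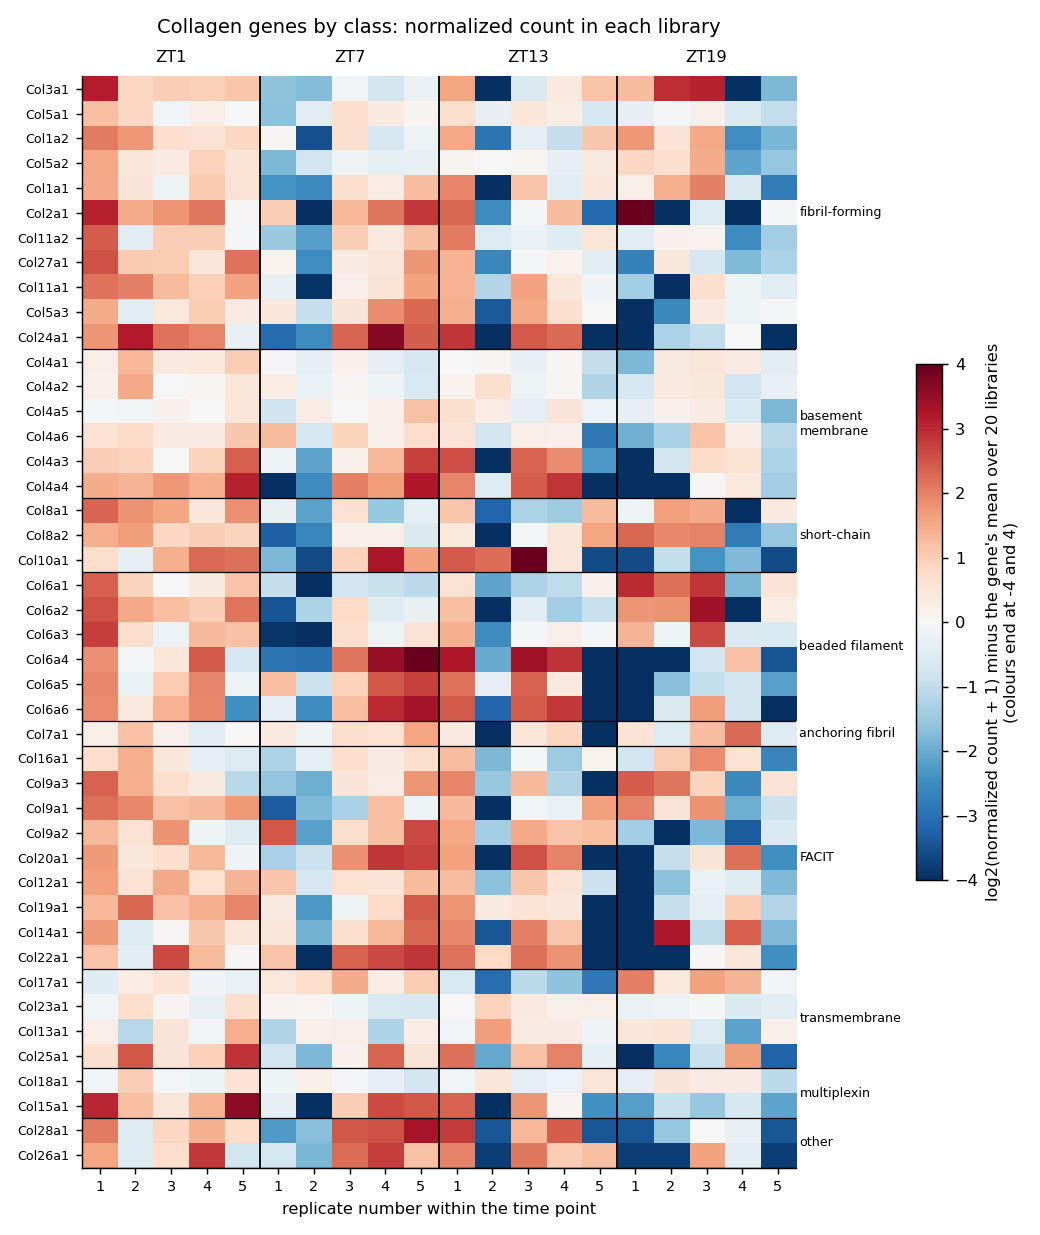
Each collagen gene (rows, by class) in each library (columns, by time point and replicate), as log2(normalized count + 1) minus the gene's mean over 20 libraries, in red above and in blue below it. ZT13 replicates 2 and 5 and ZT19 replicate 1 are blue in many low genes, whereas Col18a1, Col23a1 and Col4a1 are pale throughout, with coefficients of variation of 33.9%, 32.3% and 45.6%.

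3 further genes named for their small p among time points, Col27a1, Col12a1 and Col9a2, were lowest on average at ZT19. Col27a1, a fibril-forming chain of cartilage, had the next p after the called pair (unadjusted 0.00834, adjusted 0.213). Col27a1 had normalized counts in replicates 1 to 5 of 1057, 376, 362, 251 and 812 at ZT1, 198, 31.4, 226, 252 and 619 at ZT7, 476, 28.6, 173, 200.4 and 131 at ZT13 and finally 26.8, 245, 112, 51.6 and 75.7 at ZT19. Col12a1 and Col9a2, FACIT chains on fibril surfaces, had unadjusted p-values of 0.0106 and 0.0140. Col12a1 had normalized counts in replicates 1 to 5 of 441, 208, 408, 215 and 364 at ZT1, 307, 86.9, 216, 206 and 341 at ZT7, 329, 44.5, 296, 207 and 77.3 at ZT13 and finally 4.08, 44.3, 117, 99.3 and 40.3 at ZT19. Col9a2 had normalized counts in replicates 1 to 5 of 119, 72.1, 168, 41.8 and 33.5 at ZT1, 272, 9.72, 78.3, 111 and 302 at ZT7, 142, 18, 139, 107 and 110.2 at ZT13 and finally 18.1, 0.661, 12.9, 3.87 and 30.9 at ZT19. In each of these genes, which were named for a small p, every ZT19 value lay below every ZT1 value, while the ZT19 values overlapped those of ZT7 and ZT13. How many of all genes were separated in this way was not counted. By fitted difference 12003 of the 19209 genes tested were lower at ZT19 than at ZT1. None of the 3 was called from ZT1 to ZT19 by edgeR (adjusted p = 0.0930, 0.0900 and 0.112).

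Chains that join in 1 helix were compared across the 20 libraries, on log2(normalized count + 1), in 8 pairs with p-values adjusted over the 8. Pearson's r was 0.76 for Col1a1 and Col1a2 of type I collagen (permutation p = 0.00024, adjusted 0.00048) and 0.77 for Col4a1 and Col4a2 of type IV (0.00022, adjusted 0.00048). Type VI gave 0.75 for Col6a1 and Col6a2, 0.77 for Col6a1 and Col6a3 and 0.72 for Col6a2 and Col6a3 (adjusted permutation p = 0.0004, 0.0004 and 0.00088). Type VIII, Col8a1 and Col8a2, gave 0.74 (adjusted permutation p = 0.000528), and type V, Col5a1 and Col5a2, 0.64 (0.00239).

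Spearman's rho was 0.63, 0.71, 0.89, 0.71, 0.73, 0.71 and 0.42 in the order in which these pairs were named, with adjusted permutation p-values of 0.00448, 0.0013, 8e-05, 0.0013, 0.0013, 0.0013 and 0.0768, so that type V did not pass by rank. The 8th pair, Col4a5 and Col4a6, gave r = 0.27 (adjusted permutation p = 0.238) and rho = 0.19 (0.418).

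The correlations were also computed within time points. With each time point's mean removed, r was 0.75, 0.70, 0.74, 0.70, 0.67, 0.70, 0.58 and 0.20 in the same order with Col4a5 and Col4a6 last, and leaving out the 2 libraries in which the first chain lay farthest from its median gave 0.66, 0.69, 0.85, 0.66, 0.79, 0.58, 0.43 and 0.09. In the 15 libraries with at most 60% of reads on genes it was 0.72, 0.70, 0.86, 0.76, 0.83, 0.77, 0.70 and -0.10. The chains of a pair share the depth, the share of reads on genes and the cell mixture of each library, and no comparison with pairs of unrelated genes was made.

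**Figure D5:**
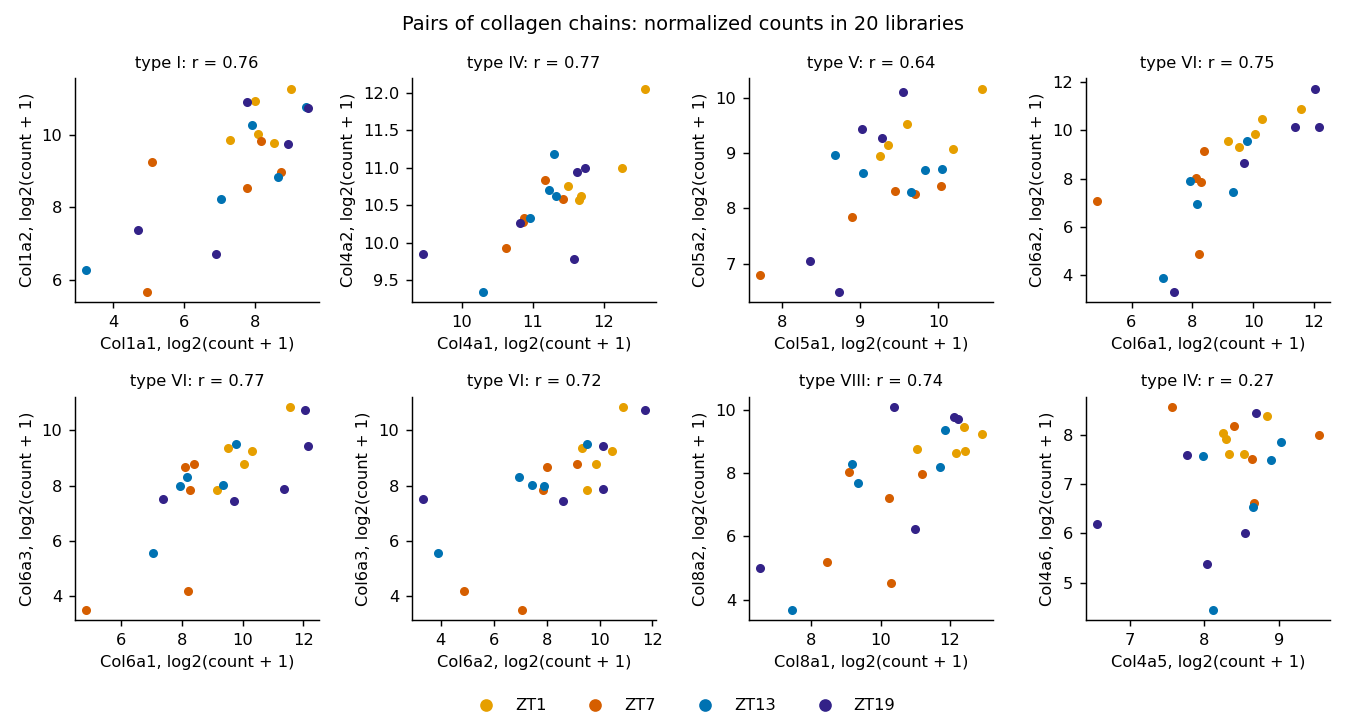
log2(normalized count + 1) of 2 chains against each other (both axes) in 8 panels, 1 point per library coloured by time point, with Pearson's r over 20 libraries. 7 panels have r of 0.64 to 0.77, and Col4a5 against Col4a6 has 0.27.

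Several of these partners are neighbours in the genome, which the naming rule did not use. In 8 pairs of the 44, the genes lay within 200 kb of each other on mm10. Col4a1 and Col4a2 start from opposite strands and overlap by 22 bases, Col4a4 and Col4a3 lie 71 bases apart and Col4a6 and Col4a5 1308 bases apart, each pair back to back, and Col6a2 and Col6a1 lie 85161 bases apart on the same strand. Reads in the overlap of Col4a1 and Col4a2 could not be assigned by position alone, and whether counting used the strand is not given in the sources used here.

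Per length, the level of Col4a1 was a median of 1.43 times that of Col4a2 (range 0.674 to 3.08 over 20 libraries), and that of Col1a1 0.674 times that of Col1a2 (0.103 to 2.18). The ratio of Col6a1 to Col6a2 had a median of 2.45 and ranged from 0.396 to 35.0, and that of Col8a1 to Col8a2 had a median of 4.53 and ranged from 0.702 to 32.7.

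Collagen chains are hydroxylated, glycosylated, folded with dedicated chaperones, trimmed and cross-linked before they are bound by receptors. Of 41 genes listed for these steps, 40 could be tested, and edgeR called none in any of the 8 comparisons. Among the 4 time points 5 of the 40 had an unadjusted p under 0.05, against 15.7% of all genes, and DESeq2 called 3 (Itga10, Tll1 and Pcolce2), against 3.22%. In pairs, DESeq2 called 4 from ZT1 to ZT19 (10.4% of all genes), 3 from ZT7 to ZT19 (10.8%) and 3 from ZT13 to ZT19 (9.26%). Mia3 was among those from ZT1 to ZT19 (DESeq2 adjusted p = 0.0118). The 2 genes of highest mean level per length in each step are given here, with their mean normalized counts or the adjusted p of edgeR among the 4 time points. P4hb, a subunit of prolyl hydroxylase, had means of 2573, 2642, 2809 and 4098 from ZT1 to ZT19 (adjusted p = 0.556) and Itgb1, the shared chain of the collagen-binding integrins, 4169.7, 3607, 4097 and 3839 (0.963).

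Crtap, of the prolyl 3-hydroxylase complex, had adjusted p = 0.834, the galactosyltransferases Glt25d1 and Colgalt2 0.917 and 0.921, the secretion factor Mia3 and the collagen chaperone Serpinh1 0.262 and 0.734, and the propeptide protease Bmp1 0.967. Pcolce2, which enhances that cleavage, had means of 1140.2 ± 720.2 (SD, n = 5) at ZT1, 143 ± 71.2 at ZT7, 209 ± 184 at ZT13, against 445 ± 264 at ZT19 (adjusted p = 0.118). The cross-linking oxidases Loxl4 and Loxl2 had 0.689 and 0.444, and the receptor kinase Ddr1 0.618. From ZT1 to ZT7 the median difference of the 40 was -0.21, against -0.51 for the 44 collagen genes and 0.05 over all genes.

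Over the whole family, the highest mean fell at ZT1 for 18 of the 44 genes, against 27.2% of all genes tested, and the lowest at ZT19 for 23, against 46.0%. ZT13 was highest for 4 collagen genes, against 18.1%, and ZT7 was lowest for 15, against 17.4%. These counts describe the means and were not tested.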

How the data were processed

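The deposited files hold raw counts, which the authors obtained with SMART-Seq v4 and Nextera XT libraries, reads of 100 nucleotides, alignment with STAR to mm10 and counting with HTSeq 1.0.0, per the labels and the submitters' processing notes. The gene annotation and strand setting are not given in the sources used here. Rows that name no gene held 47.5 to 96.7% of all reads per library and were left out.

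The whole table was fitted with edgeR 4.0.16 (R 4.3.3; TMM, filterByExpr by time point, 19209 genes, all 20 libraries, quasi-likelihood tests, Benjamini-Hochberg adjustment, threshold 0.05) and tested on simulated data; DESeq2 1.42.0 and other scalings, filters and left-out libraries were alternatives. Col genes were named by 4 criteria: an adjusted p under 0.05 in any of the 8 tests, the 15 highest levels per length, the 8 smallest p-values among time points, and the highest level in each class; of listed genes, those called and the 2 highest levels per length in the lists described. Levels used exon unions of GENCODE M21. Correlations used a pseudocount of 1 and 100000 permutations. P-values measure the spread between library pools. The members and lists were chosen with earlier results of these data known.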

Additional observations from a re-analysis of the deposited data

Results flagged for a closer look

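4 of the 80 groups of 5 libraries examined for the 20 named collagen genes held a library far from the others, and chance alone gives about 4 in 80, or 1 in 20, such groups. Col3a1 at ZT1 was 3389 normalized counts in replicate 1 against 679 to 817 in the others, with a gap of 0.886 of the group's range on the log2 scale. Col4a2 at ZT1 was 4249 in replicate 2 against 1516 to 2031, with a gap of 0.716. Col6a1 at ZT7 was 28.0 in replicate 2 against 275 to 336, with a gap of 0.919. Col9a2 at ZT13 was 18.0 in replicate 2 against 107 to 142, with a gap of 0.859.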

How the results depend on the processing

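The count of collagen genes called among the 4 time points was 1 in place of 2 with RLE, upper-quartile or total-count scaling and with the odds of a read on a gene as covariate, the gene lost being Col6a1 (adjusted p 0.0831, 0.101, 0.0555 and 0.242). DESeq2 called 1 gene for the rhythm, 6 from ZT1 to ZT19, 8 from ZT7 to ZT19 and 7 from ZT13 to ZT19, and without a filter on low counts edgeR called 1 for the rhythm. With the libraries of ZT7 and ZT13 alone, 0 were called between them (Col17a1 log2 difference -2.39, adjusted p = 0.114). Without the 5 libraries with over 60% of reads on genes, an alternative chosen after seeing the data, 0 were called among the 4 time points and 0 from ZT7 to ZT13 (Col17a1 adjusted p = 0.0610 and 0.153), while Col17a1 from ZT13 to ZT19 was called in each alternative (adjusted p 3.85e-06 to 0.0462). Leaving out 1 library at a time gave 0 to 2 genes among time points, 0 to 1 for the rhythm, 0 to 2 from ZT1 to ZT19, 0 to 1 from ZT7 to ZT13, 0 to 1 from ZT7 to ZT19 and 1 to 2 from ZT13 to ZT19; ZT19 replicate 4 accounted for the gains but for 1 without ZT13 replicate 5. No log2 difference of Col17a1 between these pairs changed sign, the cause of each lost call was not tested, and 12 of the 15 genes of highest level stayed among the top 15 without length correction.

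With the replicate number as a replicate block, 1 gene was called among the time points (Col6a1 adjusted p = 0.117) and no other collagen call changed. The numbers did not pair the libraries: 5 of 20 libraries correlated best with one of their own number.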
